A study of Mus musculus with 18 samples.

Results

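The co-culture comparison at 12 months set 3 mouse oocytes matured in vitro together with MSC against 3 matured in vitro without them. Its members were taken from the source labels MSC-IVM-MII-12m and IVM-MII-12m, which cover 6 of the 18 single-oocyte libraries of the series, and every gene in the deposited tables was considered. All 6 oocytes were metaphase II oocytes from wild-type C57BL/6 mice of 12 months, and the labels distinguish the groups only by co-culture. The labels do not spell out MSC. Per the series description the co-culture lasted overnight, and per the extraction protocol the nucleus was pelleted after gentle lysis of the single oocyte and a SMART-seq2 library was made from the supernatant, so both groups alike were read mainly from cytoplasmic RNA. The other 12 libraries are germinal vesicle (GV) oocytes at 12 months (12m) and at 6 weeks (6wk), and 6wk oocytes matured with and without MSC, again 3 per group, wild type and C57BL/6. The labels name no animal, litter or culture dish. Oocytes of 1 animal or dish may therefore be counted here as replicates. Each group of 3 oocytes was therefore treated as 1 sample, no test was made, and values after ± are the SD over 3 oocytes, which says nothing of the spread between animals.

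A fully grown oocyte stops transcribing before meiosis resumes, so its maturation to metaphase II runs on stored maternal mRNA. Stored mRNAs are translated, silenced or degraded largely through the length of their poly(A) tails, and tail length also affects how well an mRNA is captured when cDNA synthesis starts from the tail. Oocytes of older females are known for less even chromosome segregation, lower mitochondrial function and more oxidative damage, and co-culture with supporting cells has been used in attempts to improve maturation.

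Values are CPM, counts scaled to the library's total over measured genes after adjustment by its TMM factor. They are relative levels, not exact shares of a library and not amounts per oocyte. A difference is the mean of log2(CPM + 1) over the co-cultured oocytes minus the mean over the oocytes without MSC, and 1 unit is 2-fold. Values of the 3 oocytes without MSC are given first below, and those of the 3 co-cultured oocytes second, each in the order of oocytes 1 to 3. Genes are said not to overlap where every oocyte of one group lay above every oocyte of the other.

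Library totals ran from 1914072 counts (co-cultured oocyte 1) to 8948887 (oocyte 1 without MSC). Oocyte markers were present in all 6 libraries. The 16 listed genes summed to 20573, 28295 and 32583 CPM without MSC and to 17505, 20483 and 17660 CPM with MSC. Every co-cultured oocyte was thus lower, oocyte 2 only just, and Dppa3 supplied 37.6% of the sum. The mitochondrial genome supplied 12.2%, 14.9% and 6.04% of the counts without MSC and 13.2%, 11.4% and 8.17% with MSC. Of the 30 mesenchymal stromal markers, 14 were at 0 in all 6 oocytes, Col1a1, Thy1, Eng, Nt5e, Cd44, Pdgfra, Pdgfrb and Cxcl12 among them, and the summed level was 117 to 169.6 CPM without MSC and 66.9 to 128 CPM with MSC. Most of that sum came from Mmp2, a gelatinase, at 115, 76.9 and 98.3 CPM without MSC and 43.7, 36.2 and 76.2 CPM with MSC. Cumulus and granulosa markers, without Fshr, Amh and Foxl2, which were at 0, summed to 153, 187 and 157 CPM without MSC and to 45.1, 341 and 129 CPM with MSC, and 17 of the 29 listed genes were at 0 throughout. Blood and immune markers summed to 176, 417 and 161 CPM against 275, 565 and 257 CPM, with 14 of 23 genes at 0 throughout, Ptprc among them, and Ms4a1 supplied 95.5% of that sum. The median difference, defined above, was −0.61 over the 10 measured mesenchymal markers and 0.63 over the 4 measured blood and immune markers, and the part of other cells in the results was not tested. Title prefixes, whose meaning the labels do not give, were O04 for 2 oocytes without MSC and 1 with, and O05 for 1 without and 2 with.

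One library stood apart. Co-cultured oocyte 2 held more of the long transcripts and less of the short ones than the other 5. Across 4507 genes of at least 20 CPM, its deviation from the 6-oocyte mean correlated with transcript length at a Spearman coefficient of 0.506. The other 5 oocytes gave 0.004, −0.248 and −0.185 without MSC and −0.152 and −0.138 with MSC. These genes share the library, and the coefficients are descriptions of each library. The group difference followed this oocyte. In the shortest of 5 equal bins of transcripts, with a median length of 1044.5 bases, the median difference was −0.45 with all 6 oocytes and −0.17 without co-cultured oocyte 2. In the longest bin, with a median of 5909.5 bases, it was 0.22 with all 6 and −0.12 without that oocyte. Results that rest on it are therefore given with and without it, and its part in each difference beyond those values was not tested.

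**Figure D1:**
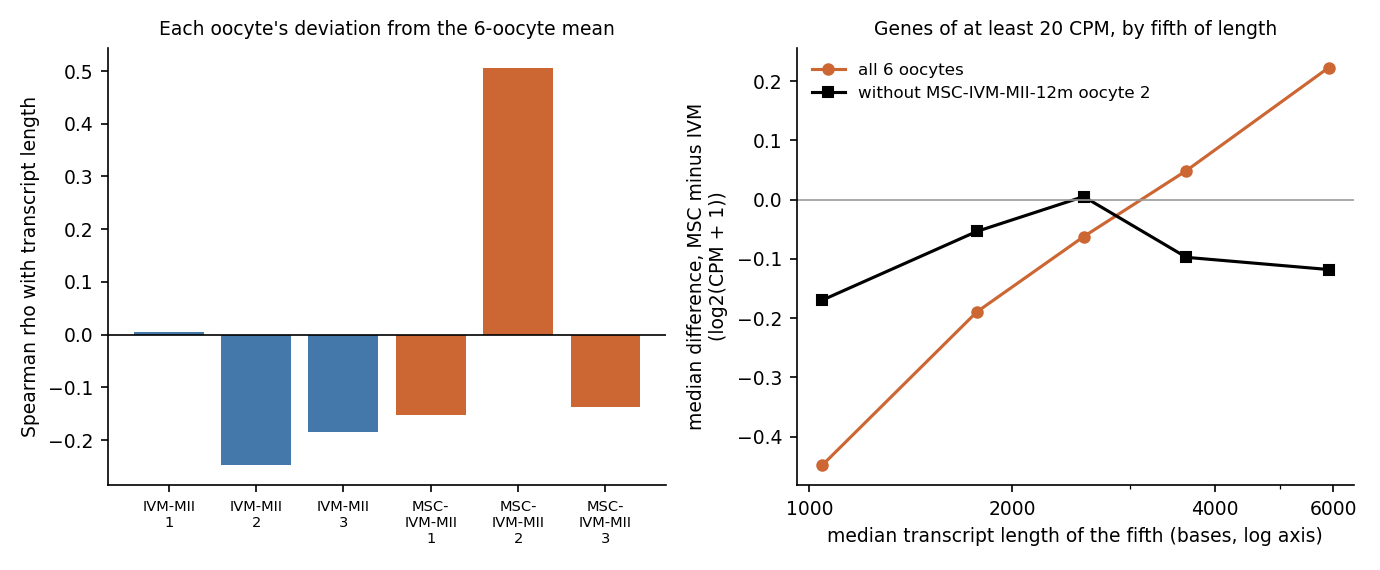
Left, bars give the Spearman coefficient between transcript length and each oocyte's deviation from the 6-oocyte mean (4507 genes of at least 20 CPM), blue without MSC and orange with MSC; co-cultured oocyte 2 is at 0.506 and the other 5 lie between −0.248 and 0.004. Right, the median difference (log2(CPM + 1), co-cultured minus without MSC) in each of 5 bins of transcript length runs from −0.45 to 0.22 with all 6 oocytes and from −0.17 to −0.12, with no steady slope, without that oocyte.

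The 2 groups were about as far from each other as the oocytes within them. The correlation of log2 values between a co-cultured oocyte and one without MSC was 0.789 to 0.872, with a mean of 0.819 over 9 pairs. It was 0.807 to 0.839 within the group without MSC and 0.764 to 0.818 within the co-cultured group. Of 12037 genes measured, 1238 (10.3%) were at least 2-fold higher with MSC and 1828 (15.2%) at least 2-fold lower. On the deposited TPM scale the split was nearly even, with 1116 higher and 1085 lower, and total counts alone gave 1517 and 1498. Without co-cultured oocyte 2, 1298 genes (10.8%) were higher and 2113 (17.6%) lower. Among the genes at least 2-fold apart, 239 (1.99%) were higher and did not overlap and 349 (2.9%) were lower and did not overlap. Which direction held more such genes depended on the scaling, with 324 higher and 204 lower on deposited TPM and 333 and 260 with total counts alone. Among the 4520 genes whose higher group averaged 20 CPM or more, 98 (2.17%) were higher in this way and 2.26% lower. The median over all genes was −0.10.

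Abundant genes gave the clearest view, because counting error is small there. Among genes that averaged 100 CPM or more in one group and did not overlap, the 8 largest differences in each direction are described, a limit chosen after values were seen. Klf17 (chromosome 4, 117757836 to 117765648, GRCm38) encodes a KLF-type transcription factor of oocytes and early embryos. Its levels were 359.7, 535 and 538 CPM without MSC and 1003, 4499 and 1291 CPM with MSC. Every co-cultured oocyte was well above the highest oocyte without MSC, and oocyte 2 was far above the other 2. The mean was 4.74-fold higher, the log2 difference was 1.94, and it was 1.28 without oocyte 2. The summed counts were 41169 (exact Poisson 95% interval 40772 to 41569) and 8174 (7998 to 8353), intervals that cover counting error only.

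Slco3a1, a transporter of organic anions and prostaglandins (chromosome 7, 74275419 to 74554780), had 76.6, 48.5 and 87 CPM without MSC and 176, 792 and 178 CPM with MSC. Pias1, a SUMO ligase (chromosome 9, 62878368 to 62987924), had 94.6, 37.9 and 42.7 CPM against 128, 555 and 124 CPM. Both genes shared the pattern of Klf17: oocytes 1 and 3 with MSC were close together and oocyte 2 was several times higher. The log2 differences were 2.07 for Slco3a1 and 1.93 for Pias1, and 1.35 and 1.22 without oocyte 2.

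Mospd1, a membrane protein with a major sperm protein domain (chromosome X, 53344598 to 53370502), differed in another way. It had 248, 469.9 and 319 CPM without MSC and 1213, 1241 and 706 CPM with MSC, so its difference of 1.61 did not come from oocyte 2 alone and was 1.47 without it. G3bp1, a stress granule protein, had 4.85, 50.3 and 33.5 CPM against 99.1, 168 and 52.9 CPM, with oocyte 3 of the co-cultured group just above oocyte 2 of the other. Its difference of 2.15 rested in part on oocyte 1 without MSC and was 1.20 when that oocyte was left out. Carmil1, which regulates actin capping, differed by 1.77 (0.98 without oocyte 2 of the group without MSC), Slc35a4, of a nucleotide sugar transporter family, by 1.68 (1.07 without oocyte 1 of that group), and Bfar, a ubiquitin ligase of the endoplasmic reticulum, by 1.66 (1.10 without co-cultured oocyte 2).

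The 14-3-3 proteins bind phosphorylated partners and are known to hold the phosphatase that starts meiotic resumption inactive. Ywhaz, one of their genes (chromosome 15, 36770770 to 36796929), had 329, 503 and 572 CPM without MSC and 936, 863 and 817 CPM with MSC. The co-cultured oocytes lay close together, at 872 ± 60.2 CPM (SD, n = 3) against 468 ± 125 CPM (SD, n = 3), and the difference was 0.93, or 0.94 without oocyte 2. Its relative Ywhab had 93.6, 90.4 and 68.8 CPM against 135, 386 and 155 CPM, a difference of 1.26 that was 0.79 without oocyte 2. Amd1, which makes the decarboxylated precursor for polyamines, had 175, 139 and 95.1 CPM against 258, 445 and 278 CPM, a difference of 1.25. Reads of Amd1 and a near-identical retrocopy may be split by the counting. Igf2bp3, an RNA-binding protein, had 84.2, 44.1 and 72.2 CPM against 151, 296 and 97.4 CPM, a difference of 1.33 that was 0.90 without oocyte 2. Ywhaz, Ywhab and Amd1 were picked after their values were seen.

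Among the abundant genes with lower values, 2 belong to metabolism and detoxification. Mdh1, the cytosolic malate dehydrogenase of the malate-aspartate shuttle (chromosome 11, 21556787 to 21572367), had 399, 269 and 359 CPM without MSC and 120.5, 88.7 and 153 CPM with MSC. All 3 co-cultured oocytes were low, the mean was 2.83-fold lower, and the difference of −1.51 was −1.31 without oocyte 2. Gstp1, a glutathione S-transferase (chromosome 19, 4035407 to 4037985), had 211, 182 and 250.3 CPM against 50.9, 36.7 and 120.0 CPM, a difference of −1.79 that was −1.43 without oocyte 2. Near-identical Gstp copies lie beside it, so its counts are less certain. Plpp1, a lipid phosphate phosphatase, had 201, 108 and 94 CPM against 12, 16.5 and 74.6 CPM, and its difference was −2.31.

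Several other abundant genes with lower values were under the 2-fold limit when 1 oocyte was left out. Acp6, a lysophosphatidic acid phosphatase, differed by −1.34 and by −0.71 without co-cultured oocyte 2, and Nrn1l, a neuritin-like protein, by −1.34 and −0.69. Adtrp, a membrane lipid hydrolase, had 37.5, 122 and 147 CPM without MSC and 33, 34.2 and 37.4 CPM with MSC, so its groups were separated by a very small gap. Its difference of −1.31 was −0.94 without oocyte 3 of the group without MSC. Fam192a differed by −1.28 and stayed at least 2-fold lower with each oocyte left out in turn, between −1.65 and −1.07. Hist1h4c, a histone H4 gene, had 12, 43.7 and 256 CPM against 8.92, 5.42 and 7.92 CPM, and its difference of −2.68 was −1.54 without oocyte 3 of the group without MSC.

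**Figure D2:**
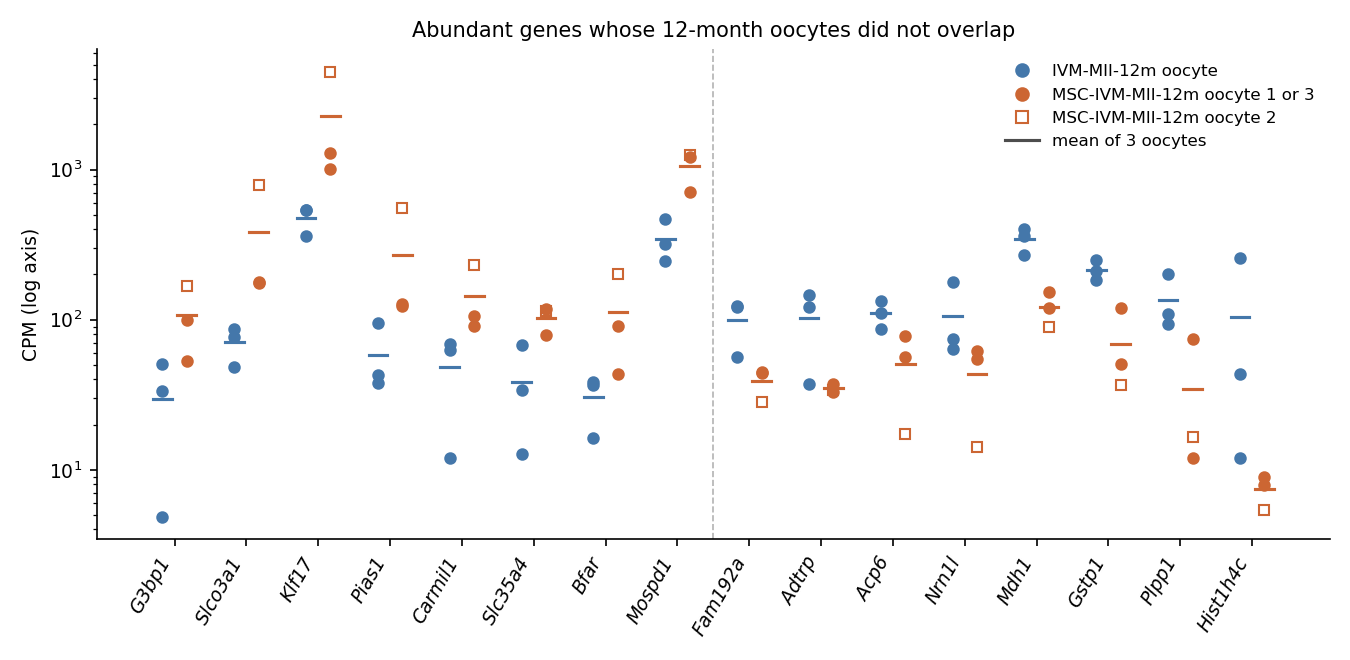
CPM (log axis) of each 12-month oocyte for the 8 abundant genes that were higher (left of the dashed line) and the 8 that were lower (right), blue without MSC, orange with MSC, bars for the mean of 3 oocytes and an open square for co-cultured oocyte 2. That square is far above the other 2 co-cultured oocytes for Klf17 (4499 CPM), Slco3a1 (792 CPM) and Pias1 (555 CPM). For Mospd1 it lies close to co-cultured oocyte 1 (1241 and 1213 CPM). Every gene shown was chosen because its groups did not overlap.

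Many histone genes were highest in 1 oocyte. Most replication-dependent histone mRNAs end in a stem-loop bound by Slbp and not in a poly(A) tail. Of 26 measured genes of the histone clusters, 19 had their highest level in oocyte 3 without MSC, and the summed level was 128, 282 and 1284 CPM without MSC and 235, 96.1 and 88.5 CPM with MSC. The median difference of these genes was −1.14 with all oocytes and −0.48 without oocyte 3 of the group without MSC. The histone H2B genes Hist1h2bj (2.79, 9.02 and 92.4 CPM against 2.23, 0 and 0 CPM) and Hist1h2ba (1.70, 4.61 and 99.8 CPM against 1.78, 0 and 0.792 CPM) and the H2A gene Hist2h2aa1 (15.3, 50.3 and 243 CPM against 31.2, 13.9 and 16 CPM) were also highest there. Without that oocyte their differences went from −3.37 to −2.06 for Hist1h2bj, from −2.75 to −1.19 for Hist1h2ba and from −1.55 to −0.52 for Hist2h2aa1. H1foo, the oocyte linker histone, reached 11031 CPM in that oocyte but 7813 CPM in co-cultured oocyte 2, so its groups overlapped. Histone copies are near identical in sequence, and their counts are less certain for that reason. The family was examined after its values were seen.

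The 12 largest differences among genes of this kind with 20 CPM or more ran from 2.21 to 3.08 for the higher genes, and all 12 remained at least 2-fold higher without co-cultured oocyte 2, between 1.86 and 3.09. Ppp4r3b, a regulatory subunit of protein phosphatase 4, had 0.121, 0.401 and 6.37 CPM without MSC and 19.2, 38.7 and 7.72 CPM with MSC. Its summed counts were 33 (exact Poisson 95% interval 22.7 to 46.3) and 361 (325 to 400.2), and oocyte 3 of each group lay close to the other. Ust, a uronyl sulfotransferase, had 4.85, 0.601 and 10.4 CPM against 32.6, 74.8 and 21.2 CPM. Tbc1d8, of a family that activates Rab GTPases, was the most even of the 12, with 3.88, 3.41 and 1.70 CPM against 25.9, 24.3 and 19 CPM. The wide gap in Tbc1d8 gave a 7.70-fold higher mean.

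Membrane traffic, cytoskeleton and the lysosome were represented in the same 12 genes, which were too few for any statement on groups. Lrba, a trafficking protein with a BEACH domain, had 7.51, 0.802 and 1.49 CPM without MSC and 37.9, 16.8 and 19.8 CPM with MSC. Cep170, a centrosomal protein, had 0.969, 2.40 and 5.31 CPM against 43.3, 7.64 and 18.8 CPM. Atp6v1a, the catalytic subunit of the proton pump that acidifies lysosomes, had 2.79, 12 and 19.5 CPM against 38.4, 87.9 and 41.8 CPM. In Lrba and Cep170 the highest value was that of oocyte 1 and not of oocyte 2. Arhgap21, a GTPase-activating protein, Ttll4, a tubulin polyglutamylase, Abcf3, an ATPase of the ABC family, Tph2, a tryptophan hydroxylase, and Fam117b and Lrrc40 made up the 12. Leaving out oocyte 1 without MSC took Abcf3 from 2.66 to 1.32. Leaving out oocyte 2 of that group took Lrrc40 from 2.47 to 1.32 and Ttll4 from 2.32 to 1.16. Without oocyte 3 of that group Arhgap21 went from 2.59 to 1.66.

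Among the lower genes the 12 largest differences ran from −3.40 to −2.65, and all 12 remained at least 2-fold lower without co-cultured oocyte 2, between −3.25 and −1.08. Iqcc had 23.7, 33.1 and 7.86 CPM without MSC and 0, 0 and 5.35 CPM with MSC. Samm50, which assembles proteins into the outer mitochondrial membrane, had 24.6, 30.5 and 19.5 CPM against 0, 0 and 17.6 CPM. Stam, an endosomal sorting protein, had 34.5, 40.7 and 44.6 CPM against 0, 9.72 and 17.4 CPM. In each of these genes co-cultured oocyte 3 was nearest to the group without MSC.

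Egfr, the epidermal growth factor receptor, had 30.5, 72.7 and 20 CPM without MSC and 0, 8.33 and 18.2 CPM with MSC, and Snrpa, a protein of the U1 splicing particle, had 42.6, 28.1 and 28.9 CPM against 0, 2.92 and 21.6 CPM. Co-cultured oocyte 1, the shallowest library, was at 0 for Egfr, Snrpa, Stam, Iqcc and Samm50. Without it the differences were −1.45 for Egfr, −1.84 for Snrpa, −1.53 for Stam and, for the LIM protein gene Crip2, −1.75 in place of −2.67. Dirc2, a lysosomal membrane transporter, went from −2.92 to −1.69, Mrap, an accessory protein of melanocortin receptors, from −2.93 to −1.87, and Sgf29, a chromatin reader of the SAGA complex, from −2.65 to −1.08 without co-cultured oocyte 2. Phf11c, Hist1h2bj and Hist1h4c completed the 12. The median transcript length was 4788 bases for the 12 higher genes and 2039 bases for the 12 lower ones.

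Few of these differences recurred with co-culture at 6wk, in libraries that share none with the 12m comparison. The 6wk groups were uneven as well. Gdf9 had 17374, 572 and 1580 CPM without MSC and 12657, 1623 and 1353 CPM with MSC, and Mos 1261, 4.97 and 6.28 CPM against 643, 1.00 and 8.63 CPM. The 6wk median difference was 0.04 in the shortest bin of transcripts and 0.42 in the longest. The part of either in the low recurrence was not tested. At 6wk, 1956 genes (16.2%) were at least 2-fold higher with MSC and 628 (5.22%) at least 2-fold lower, and 367 (3.05%) and 106 (0.881%) of them did not overlap. Of the 239 genes that were higher without overlap at 12m, 12 were so at 6wk and 2 were lower without overlap. Of the 349 that were lower without overlap at 12m, 5 were so at 6wk and 24 were higher without overlap. A positive difference at 6wk was found for 162 (67.8%) of the 239 genes and for 61.1% of all genes. A negative one was found for 122 (35.0%) of the 349 and for 36.5% of all genes. Across all 12037 genes the correlation between the 12m and 6wk differences was close to 0 (Pearson r = 0.014, Spearman coefficient = 0.024), a description over genes measured in the same libraries. The 12m co-culture difference correlated at r = 0.004 with the difference between 12m and 6wk GV oocytes. With the 6wk maturation difference, oocytes matured without MSC minus GV oocytes, r was 0.186. Without co-cultured oocyte 2, r was −0.025 for 6wk co-culture, −0.052 for GV age and −0.014 for 6wk maturation.

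Cep170 and Lrba were among those that recurred: at 6wk Cep170 had a mean of 16.2 ± 7.77 CPM with MSC and 4.56 ± 3.85 CPM without, and Lrba 6.33 ± 1.41 CPM and 1.73 ± 2.99 CPM (SD, n = 3 each). Mospd1, Mdh1 and Ywhaz had similar means in both 6wk groups. Carmil1 had a 6wk difference of 1.65, but its groups overlapped there. It had 108, 2.17 and 21.4 CPM without MSC and 98.0, 32.8 and 70.8 CPM with MSC. Mospd1 had 783 ± 73.1 CPM with MSC and 835 ± 343 CPM without at 6wk, Mdh1 373 ± 87.5 and 368 ± 20.3 CPM, and Ywhaz 600.2 ± 116 and 596 ± 330.1 CPM (SD, n = 3 each). These 6wk means lay between the 12m groups for Mospd1 and Ywhaz and above both for Mdh1. Klf17 had 1154 ± 575 CPM with MSC and 1028 ± 1171 CPM without. In GV oocytes at 12m the same genes were at 49.3 ± 18.2 CPM for Mospd1, 181 ± 76.7 CPM for Ywhaz, 57.7 ± 22.6 CPM for Klf17 and 324 ± 202 CPM for Mdh1.

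**Figure D3:**
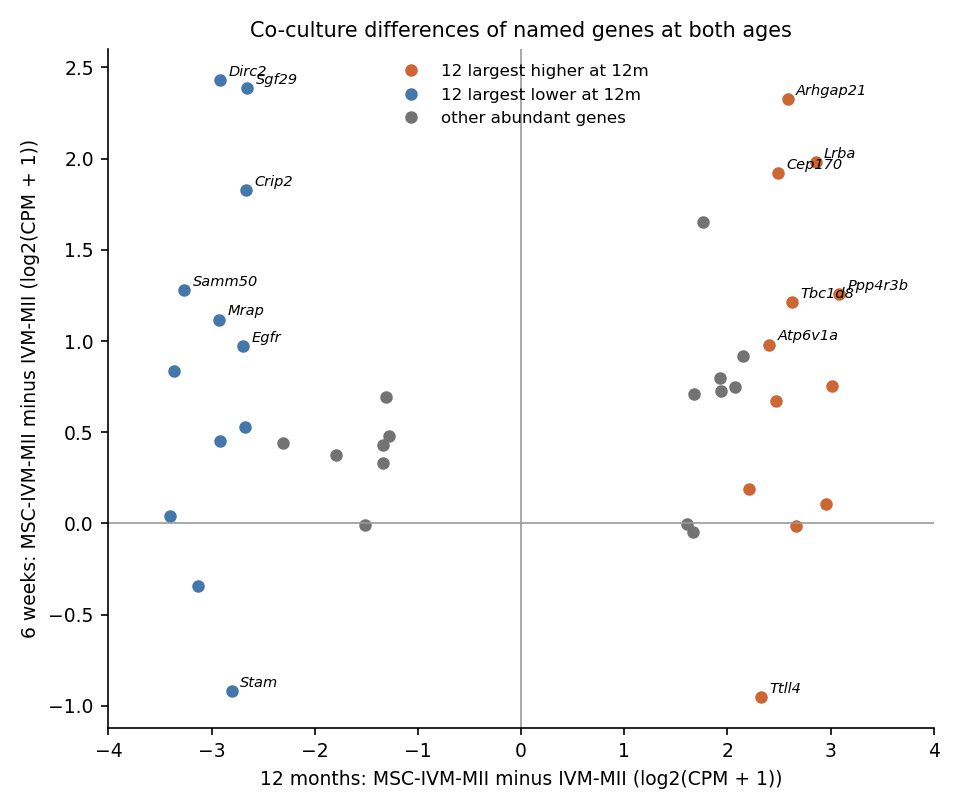
Difference with co-culture (log2(CPM + 1)) at 12 months on the x axis and at 6 weeks on the y axis for the 12 largest higher genes (orange), the 12 largest lower genes (blue) and the other abundant genes (grey). Of the 12 higher genes 10 are also above 0 at 6 weeks, and of the 12 lower genes 2 are below 0 there.

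Gene lists are described by the median difference of their measured members beside that of all genes (−0.10 with all 6 oocytes, −0.11 without co-cultured oocyte 2), and by how many members were at least 2-fold apart beside 10.3% higher and 15.2% lower among all genes. The lists were drawn up for this tissue with earlier results of these data known. A list counts as apart where its median differed from that of all genes by at least 0.5. Of the 25 pathway lists only nuclear-encoded oxidative phosphorylation did so with all 6 oocytes, and without co-cultured oocyte 2 it did not. It also missed the limit without oocyte 1 of the group without MSC, on deposited TPM, with DESeq2 size factors, with total counts alone, at equal depth, with the larger pseudocount and after adjustment for transcript length. Other lists passed the limit when 1 oocyte was left out. Without co-cultured oocyte 1 the distance from all genes was −0.842 for cytosolic ribosomal proteins, −0.579 for proteasome subunits and 0.568 for PI3K-AKT-mTOR, and without co-cultured oocyte 3 it was 0.677 for TGF-beta and BMP signalling. Without oocyte 2 of the group without MSC it was 0.574 for the mitochondrially encoded mRNAs and 0.549 for the calcium store. The calls on lists therefore rest on single oocytes.

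Subunits of the respiratory chain and ATP synthase made in the nucleus had a median difference of −0.63 over 76 genes, and 26 of them (34.2%) were at least 2-fold lower and 2 higher. The median log2 level per oocyte was 5.12, 4.06 and 4.99 without MSC and 4.24, 2.60 and 4.51 with MSC. Co-cultured oocyte 2 was the lowest, and the other 2 lay within the range of the group without MSC. Without oocyte 2 the median was −0.10 beside −0.11 for all genes, with 10 members lower and 3 higher. Within title prefixes the median was 0.05 for O04 and −1.18 for O05. The median transcript of the list is 870 bases long, and adjusting each oocyte for transcript length gave −0.35. Atp5g1, a subunit of the ATP synthase ring, had 21.6, 28.1 and 29.7 CPM without MSC and 11.6, 3.89 and 10.3 CPM with MSC, a difference of −1.62 that was −1.19 without oocyte 2. Sdha, the catalytic subunit of succinate dehydrogenase, went the other way, with 43, 41.7 and 41.2 CPM against 65.1, 149 and 54.8 CPM, a difference of 0.94 that was 0.50 without oocyte 2.

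Cytosolic ribosomal proteins resembled them, with a median of −0.49 over 79 genes, 23 at least 2-fold lower and 2 higher, and −0.22 without oocyte 2. Their summed level was 3301, 2641 and 3137 CPM without MSC and 3136, 1189 and 2869.8 CPM with MSC, so that again 1 oocyte was low. Ribosomal protein genes have many processed pseudogenes, and their counts are less certain. The 72 mitochondrial ribosomal proteins had a median of −0.19, and the 13 mitochondrially encoded mRNAs one of −0.02 with 1 member higher and none lower at the 2-fold limit. The 31 measured genes of mitochondrial dynamics and biogenesis had a median of −0.44, and −0.12 without oocyte 2.

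Several lists of long transcripts had medians above that of all genes, and these were lower without co-cultured oocyte 2. The receptors, SMADs and regulators of TGF-beta and BMP signalling had a median of 0.37 over 22 genes, with 6 higher and 0 lower, and 0.03 without oocyte 2. PI3K-AKT-mTOR genes had 0.22 over 31 genes and 0.00 without it, and cohesin and cohesion genes 0.22 over 22 genes and −0.12 without it. Pik3cd, a catalytic subunit of PI3 kinase, had 0.606, 19.4 and 22.1 CPM without MSC and 22.8, 46 and 28.5 CPM with MSC. Its difference of 1.81 was 0.56 without oocyte 1 of the group without MSC. DNA methylation and histone modifier genes had −0.04 over 49 genes and −0.35 without oocyte 2, and Tet3, a DNA demethylase, was at 388 CPM in oocyte 2 against 22.9 to 83.7 CPM in the other 5.

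Deadenylation and translational control (53 genes), DNA damage response (55), chaperones (46), glycolysis (27), sterol synthesis (21) and translation factors (40) had medians between −0.16 and 0.00, and apoptosis (28 genes) had 0.13. Without co-cultured oocyte 2 the first 6 of these had −0.30, −0.06, 0.07, −0.15, −0.36 and −0.07 in that order. Apoptosis had 0.17 and all genes −0.11 without it. The calcium store and egg activation list had 0.22 over 27 genes, as far from all genes as cohesin and PI3K-AKT-mTOR, and 0.00 without oocyte 2. Pdk3, which inhibits pyruvate dehydrogenase, had 14.2, 47.7 and 30.4 CPM without MSC and 70.1, 50.8 and 58 CPM with MSC. Its difference of 1.08 was 0.62 without oocyte 1 of the group without MSC.

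**Figure D4:**
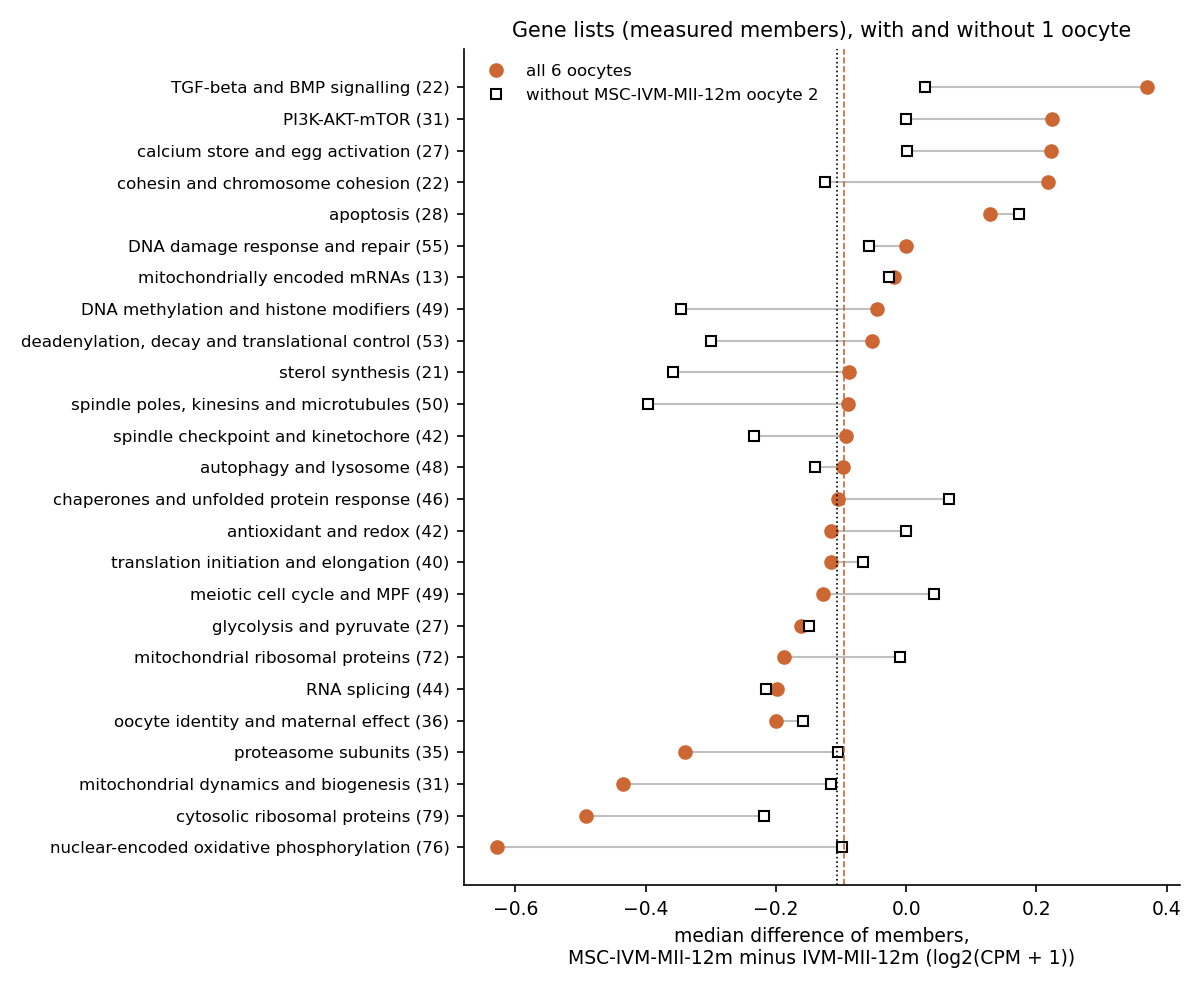
Median difference (log2(CPM + 1), co-cultured minus without MSC) of the measured members of 25 gene lists, with all 6 oocytes (orange circles) and without co-cultured oocyte 2 (open squares); the dashed and dotted lines are the medians of all genes, −0.10 and −0.11. Oxidative phosphorylation goes from −0.63 to −0.10 and TGF-beta and BMP signalling from 0.37 to 0.03.

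Single redox genes differed in both directions, while the list as a whole was near all genes. Of 42 measured, 4 (9.52%) were at least 2-fold higher and 8 (19.0%) lower, beside 10.3% and 15.2% of all genes. The median was −0.12 beside −0.10 for all genes. Gclm, the modifier subunit of the enzyme that starts glutathione synthesis (chromosome 3, 122245557 to 122270732), had 4.48, 9.02 and 8.28 CPM without MSC and 19.2, 28.6 and 21.8 CPM with MSC. Both groups were tight, at 7.26 ± 2.43 and 23.2 ± 4.86 CPM (SD, n = 3 each), and the difference was 1.58, or 1.42 without oocyte 2. At 6wk Gclm was lower with MSC, at 25.8 ± 13.4 CPM against 57.8 ± 19.8 CPM (SD, n = 3 each), with overlap. Hmox2, the constitutive haem oxygenase, had 51.2, 16.8 and 45 CPM without MSC and 4.46, 6.53 and 13.9 CPM with MSC, a difference of −2.04 that was −1.96 without oocyte 2. The superoxide dismutases overlapped, with Sod1 at 57.3, 47.9 and 32.7 CPM against 57.6, 26.1 and 56.6 CPM and Sod2 at 145, 339.6 and 107 CPM against 192, 156 and 124 CPM. Gpx4 and Prdx3 also overlapped, and Cat had counts in 1 co-cultured oocyte only.

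Meiotic regulators mostly overlapped, as did most genes. Of 49 measured genes of the meiotic cell cycle, 0 higher and 1 lower did not overlap, whatever the size, beside 2.63% and 3.99% of all genes. At the 2-fold limit 3 (6.12%) were higher and 2 (4.08%) lower, beside 10.3% and 15.2% of all genes. Without co-cultured oocyte 2 these counts were 6 and 2. The median was −0.13. Ccnb1, cyclin B, had 1182, 1030.3 and 1415 CPM without MSC and 1080.2, 1029 and 1070.4 CPM with MSC. Wee2, the oocyte kinase that inhibits Cdk1, had 154, 117 and 162 CPM against 145, 147 and 168 CPM. Anapc10, a subunit of the anaphase-promoting complex, did not overlap, with 359, 335 and 376 CPM against 239, 229 and 231 CPM. Its difference was −0.61, and −0.60 without oocyte 2. Cdk1, at 11.1, 0.401 and 46.1 CPM against 6.25, 8.75 and 17 CPM, overlapped.

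At the kinetochore, 42 genes had a median of −0.09, with 4 higher and 4 lower (9.52% each) at the 2-fold limit. Cenpu and Cenph, parts of the constitutive centromere network, were lower in all 3 co-cultured oocytes. Cenpu had 114, 142 and 125 CPM without MSC and 49.1, 41.4 and 77.4 CPM with MSC, a difference of −1.22. Cenph had 286, 231 and 321 CPM against 171, 169 and 142 CPM, a difference of −0.79. Bub1b, the checkpoint kinase BubR1, had 27, 36.7 and 52 CPM against 0, 47.1 and 8.71 CPM. Its groups overlapped, and its difference of −2.30 was −0.82 without co-cultured oocyte 1 and −3.62 without oocyte 2. Mad2l1, another checkpoint protein, overlapped as well. Cep57, a centrosomal protein, had 35.1, 50.1 and 38.6 CPM against 68.7, 58.9 and 53.5 CPM, and Kif5b, a kinesin heavy chain, differed by 1.33, and by 0.96 without oocyte 2. Rec8, the meiotic cohesin, was at 0 counts in all 6 oocytes.

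Oocyte-specific and maternal-effect genes had a median of −0.20 over 36 genes, with 2 (5.56%) higher and 4 (11.1%) lower at the 2-fold limit. Dppa3, a maternal factor that protects DNA methylation in the zygote (chromosome 6, 122626410 to 122630272), had 13274, 11329 and 8303 CPM without MSC and 6819, 4522 and 7311 CPM with MSC. Its difference was −0.82, or −0.61 without oocyte 2. Bcl2l10, an abundant oocyte member of the Bcl-2 family (chromosome 9, 75347758 to 75351632), had 13765, 11769 and 16648 CPM against 7031, 11581 and 8895 CPM, and co-cultured oocyte 2 nearly reached the group without MSC. Its difference was −0.63, and −0.82 without that oocyte. These genes were below the 2-fold limit, but the groups did not overlap.

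The secreted factors Gdf9 (1156, 2904 and 3397 CPM against 2073, 2218 and 1613 CPM) and Bmp15 (365, 537 and 769 CPM against 474, 213 and 813 CPM) overlapped, and so did Zp1, Zp2, Zp3, Nlrp5, Ooep and Nobox. Zp3, a zona pellucida protein, differed by −1.10 and by −0.38 without co-cultured oocyte 2. The maternal deadenylation adaptor Btg4 had 6371, 6341 and 10355 CPM without MSC and 4756, 5929.7 and 7558 CPM with MSC, again with overlap. Bax, at 24.5, 32.3 and 43.1 CPM against 29.4, 29.2 and 41.8 CPM, overlapped, and Bcl2 was at 0 counts in all 6 oocytes. Sirt1, Sirt3, Tfam, Mfn2 and Dnm1l, genes of mitochondrial upkeep, overlapped too. Their differences were −0.45, −1.55, −1.51, −1.66 and −0.86 in that order. Except for Dnm1l, their means were under 20 CPM in both groups. Without co-cultured oocyte 2, Dnm1l differed by −1.35 and did not overlap.

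Over all genes, 2.63% were higher and 3.99% lower without overlap whatever the size of the difference. Of 48 measured autophagy and lysosome genes, 5 (10.4%) were at least 2-fold higher and 12 (25.0%) lower, beside 10.3% and 15.2% of all genes. Without co-cultured oocyte 2, 4 were higher and 8 (16.7%) lower, beside 10.8% and 17.6% of all genes. The list median was −0.10, as for all genes. Whatever the size, 2 members were higher and 7 lower without overlap. The Ragulator subunits Lamtor1 and Lamtor3, which anchor mTORC1 at the lysosome, were among the lower ones. Lamtor3 had 199, 203 and 429 CPM without MSC and 155, 41 and 195 CPM with MSC. Without oocyte 2 the differences were under the 2-fold limit, from −1.25 to −0.55 for Lamtor1 and from −1.26 to −0.57 for Lamtor3. Atp6v1a, given above, was the largest higher member.

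Of 44 splicing genes, 5 (11.4%) were higher and 4 (9.09%) lower at the 2-fold limit. Whatever the size, 3 higher and 5 lower did not overlap, beside 2.63% and 3.99% of all genes. Snrpd3 and Snrpf, core Sm proteins, were lower: Snrpd3 had 1399.9, 811 and 889 CPM against 488, 526 and 680.2 CPM, and Snrpf had 449, 545 and 466 CPM against 424, 219.5 and 293 CPM. Of 35 proteasome subunits 1 (2.86%) was higher and 8 (22.9%) were lower at the 2-fold limit, beside 10.3% and 15.2% of all genes. Without co-cultured oocyte 2, 3 were higher and 5 (14.3%) lower, beside 10.8% and 17.6% of all genes. The median was −0.34, and −0.10 without that oocyte. Psmd10 had 93, 112 and 51 CPM against 27.7, 44.3 and 43.9 CPM, while Psmd7 was higher with MSC, at 57.1, 163 and 52.5 CPM against 41.9, 38.3 and 52.2 CPM, groups that nearly touched. Its difference of 0.84 was 0.32 without oocyte 2. Eif2b1, a subunit of the exchange factor for eIF2, had 2536, 2051 and 2407 CPM against 1463, 1487 and 1473 CPM. Its co-cultured oocytes were nearly equal, and its difference was −0.65. Parn, a deadenylase, differed by −0.96. Among the chromatin and replication factors Asf1b, a histone chaperone picked after its values were seen, had 1027, 788 and 1179 CPM against 307, 678 and 477 CPM, and Pcna, the sliding clamp, differed by −0.71 without overlap.

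Since poly(A) tails of stored mRNAs lengthen during maturation through cytoplasmic polyadenylation elements, the ends of the 3′ UTRs were searched for such elements. The motifs were TTTTAT and TTTTAAT on the transcript strand, within the last 150 bases of 1 GENCODE M21 transcript per gene. TTTTAAT can share its last bases with the polyadenylation signal AATAAA. Of the genes of at least 20 CPM with a 3′ UTR, 28.5% (1193 of 4186) held a match, and of all measured genes 24.7% (2641 of 10673). Among the genes at least 2-fold higher without overlap the share was 38.1% (37 of 97), and among the lower ones 23.2% (19 of 82). Without co-cultured oocyte 2 the shares in those genes that still met the limits were 41.3% (31 of 75) and 23.5% (16 of 68). The median 3′ UTR was 1271 bases in the higher genes, 734 bases in the lower genes and 925 bases in all genes of at least 20 CPM, and whether length accounts for the shares was not tested. A match is a description of the sequence and not a shown site.

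The windows below show the match in capitals for 5 higher genes and 3 lower genes named above, 5′ to 3′ on the transcript strand, with the position in GRCm38, from the GENCODE M21 transcripts. They are examples of matches in genes of either direction. The search was limited to the end of each transcript, so every match lies near that end by design.
Slco3a1, higher, chr7:74281882-74281911, minus strand: ccagggcttgctTTTTATcaacagttattt
Mospd1, higher, chrX:53345028-53345057, minus strand: tgttttttaagtTTTTATttattcaaataa
Ywhab, higher, chr2:164018559-164018588, plus strand: ttaaagtgaaataaaacaTTTTATcagtta
Amd1, higher, chr10:40287518-40287547, minus strand: ttggtgttggacTTTTAATcagctgaaatg
Ppp4r3b, higher, chr11:29220759-29220788, plus strand: ataaaaaactatTTTTAATaaaaagttatg
Asf1b, lower, chr8:83970135-83970164, plus strand: tatattaaaaggTTTTATattaaaagtttt
Cenpu, lower, chr8:46579978-46580007, plus strand: ataagagataattaaacatTTTTAATctgt
Lamtor3, lower, chr3:137928710-137928739, plus strand: aggatggccattTTTTATacatgtgtataa
The match began 42 bases before the transcript end in Slco3a1, 25 in Mospd1, 12 in Ywhab, 78 in Amd1 and 27 in Ppp4r3b, and 51 in Asf1b, 11 in Cenpu and 44 in Lamtor3. In Ppp4r3b the motif runs into AATAAA.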

How the data were processed

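The deposited tables hold expected counts, TPM and FPKM for 47069 Ensembl genes per oocyte, per the file headers. Per the submitters' processing notes, the build was GRCm38.p5 (mm10) and the tools included TopHat2 2.1.1, Cufflinks, Trim Galore 0.4.5 and FastQC 0.11.8. What produced the expected counts, and with which annotation, is not given in the sources used here. The deposited expected counts may split reads among similar genes. They were rounded to whole counts, normalised with the TMM factors of edgeR 4.0.16 under R 4.3.3 and filtered with filterByExpr over all 18 libraries, which left 12037 genes. The authors' deposited TPM were an alternative scale. FPKM was not used. Gene symbols, lengths and 3′ UTRs came from GENCODE M21 (46488 identifiers matched).

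Members and lists were chosen with earlier results of these data known. Named genes reached 20 CPM in the mean of one group and showed no overlap: the 12 largest in each direction, up to 3 per list, and a panel of 40 oocyte quality genes whatever their values. Predicted genes, Riken clones, pseudogenes and clone names were left out. Abundant genes, Ywhaz, Ywhab, Amd1, Asf1b and the histones were added after values were seen. Folds are ratios of mean CPM. The pseudocount of 1 understates differences of weak genes. Transcript length is that of 1 transcript per gene (protein coding first, then APPRIS rank, then the longest). Depth was 1914072 to 8948887 counts per oocyte, and since no molecular identifiers are described, Poisson intervals cover counting error of reads only. The computation was tested on simulated counts. Alternatives covered scaling (DESeq2 1.42.0 size factors among them), pseudocount, filter, depth, title prefix, transcript length (added after seeing the data) and leaving out each oocyte. Python 3.11.15, NumPy 2.4.6, pandas 2.3.3 and Matplotlib 3.10.9 were used.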

Additional observations from a re-analysis of the deposited data

Results flagged for a closer look

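In 3 of 112 named genes every co-cultured oocyte was below every oocyte without MSC at 12m, while at 6wk every co-cultured oocyte was above. Many of the 112 were named because they did not overlap at 12m, and no size limit was set here. All 3 were under the 2-fold limit at 6wk. With that limit at both ages, 24 of the 349 genes lower without overlap at 12m were higher without overlap at 6wk. Of all genes, 3.05% were higher in this way at 6wk. The difference between the ages was not tested. Asf1b, the histone chaperone, differed by −1.086 at 12m and by 0.58 at 6wk, where the means were 1191 ± 286 CPM with MSC and 784 ± 20.1 CPM without (SD, n = 3 each). Plpp1, the lipid phosphatase, differed by −2.309 at 12m and by 0.44 at 6wk (108 ± 40.4 against 76.1 ± 5.58 CPM). Psmb6, a catalytic proteasome subunit, differed by −0.890 at 12m, with 457, 174 and 229 CPM without MSC and 119, 149 and 161 CPM with MSC, and by 0.65 at 6wk (241 ± 58.3 against 156 ± 47.2 CPM).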

How the results depend on the processing

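The 4 counts of genes moved by over 1.5 times under some settings. With a mean of at least 10 CPM required over the 6 libraries, 479 genes were at least 2-fold higher and 731 lower, and 109 and 131 of them did not overlap. With a pseudocount of 5 the counts were 374, 540, 151 and 179. On deposited TPM 1085 genes were lower and 204 of them did not overlap. With the mean of within-prefix differences, 442 higher and 858 lower genes were separated inside both prefixes. Leaving out each oocyte in turn gave 1298 to 1895 (without co-cultured oocyte 1) higher and 1739 to 2631 lower genes, and 466 to 695 and 642 to 1049 without overlap, which is easier to reach with fewer oocytes. The oxidative phosphorylation median minus that of all genes ran from −0.997 to 0.008 with each oocyte left out, and was 0.008 without co-cultured oocyte 2. Among the 66 named genes with a difference of at least 1, none of 1182 values under 18 alternatives changed sign, and 1110 stayed at least 2-fold. Most of these genes were named because their oocytes did not overlap in these data. Leaving out an oocyte or changing the pseudocount could not turn their sign, so the sign says little here. A value of 0 counted as unchanged, as for Cat without co-cultured oocyte 3. The median of all genes was −0.10 here, 0.00 with total counts alone and −0.02 with DESeq2 size factors. No paired analysis was possible because the labels give no replicate numbers that pair oocytes and no test was made. The shallowest library, co-cultured oocyte 1, limits what can be said of genes at 0 there.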
